A study of Mus musculus with 54 samples.

Results

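Carboxylesterases are serine hydrolases of the endoplasmic reticulum that split ester and amide bonds in drugs, pesticides and lipids, and the liver is one of their main sites. Here the 10 genes Ces1c, Ces1d, Ces1e, Ces1f, Ces1g, Ces2a, Ces2c, Ces2e, Ces3a and Ces3b were followed, chosen by symbol from the 18079 genes of the table. They were measured by RNA sequencing in 54 livers of female C57BL/6J mice aged 8 to 12 weeks. The wild type (WT) group had intact BMAL1, the BMAL1 knockout (KO) group lacked BMAL1 (the product of Arntl, a DNA-binding protein without which the circadian clock stops), and the Liver-RE group (BMAL1-stop-FL) carried the knockout with BMAL1 reconstituted in the liver. The labels do not say how BMAL1 was reconstituted or in which liver cells. All groups shared strain, sex, normal chow given ad libitum and a cycle of 12 h light and 12 h dark. In each genotype 3 mice were taken at each of 6 harvest times, ZT0, 4, 8, 12, 16 and 20, given as hours since the lights came on, so that each genotype had 18 livers.

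The mouse family arose by repeated gene duplication, and its members take on different tasks. Several Ces1 proteins act on stored fat: Ces1d, also called triacylglycerol hydrolase, releases fatty acids from lipid stores for the assembly of very low density lipoprotein (VLDL), and Ces1g and Ces1f also act on neutral lipids. Ces1c is secreted and is the main carboxylesterase of mouse plasma, where it cleaves ester prodrugs, and Ces1e, or egasyn, holds beta-glucuronidase in the endoplasmic reticulum. The Ces2 enzymes are known for drug hydrolysis and, for Ces2a and Ces2c, for acting on acylglycerols, while Ces3a and Ces3b are liver enzymes with less well described substrates.

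The 10 genes lie in 2 groups on chromosome 8 (RefSeq positions on GRCm38.p6, strands from GENCODE). The 5 Ces1 genes lie on the minus strand between 93099015 and 93337209, a span of 238 kb, and the 3 Ces2 and 2 Ces3 genes on the plus strand between 104734003 and 105093929, a span of 360 kb; 11.4 Mb separate the groups. Coding sequences were 74.7% to 81.6% identical between Ces1 members, 83.0% to 84.0% between Ces2 members, 95.3% between Ces3a and Ces3b, and 61.9% to 65.7% between subfamilies. Reads of 100 bases could therefore fall on a near copy for some genes. Of all windows of that length in the transcript, 9.09% of those of Ces3a and 7.68% of those of Ces3b occurred in the other, 15.7% of those of Ces2c occurred in the pseudogene Ces2d-ps, and 1.39% of those of Ces1c in Ces1b. None was shared for Ces1d, Ces1e, Ces1f, Ces1g, Ces2a or Ces2e, so by identical windows the split of reads is uncertain mainly for the Ces3 pair and Ces2c. Only identical windows in other carboxylesterase transcripts were counted. Reads placed with mismatches, or shared with other genes, are therefore not covered.

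Start regions were available from RefSeq (GRCm38.p6) for 7 of the 10 members, as windows of 300 bases from 250 before the start to 50 after it; Ces1d, Ces1f and Ces3a had no entry. The windows below are printed because they show an 8-letter sequence found in the Ces1 members with a window and not in the Ces2 and Ces3 members: TTATGTAA, a form of the D-box, to which the clock output factors Dbp, Tef and Hlf and their opponent Nfil3 are known to bind. It is in capitals in Ces1c (chr8:93131234-93131533, minus strand), Ces1e (chr8:93229570-93229869, minus strand) and Ces1g (chr8:93337160-93337459, minus strand). Ces2a (chr8:104733753-104734052, plus strand) has AGGTCA, a core sequence of nuclear receptor sites, in capitals, and Ces3b (chr8:105083505-105083804, plus strand) has no capitals.
Ces1c: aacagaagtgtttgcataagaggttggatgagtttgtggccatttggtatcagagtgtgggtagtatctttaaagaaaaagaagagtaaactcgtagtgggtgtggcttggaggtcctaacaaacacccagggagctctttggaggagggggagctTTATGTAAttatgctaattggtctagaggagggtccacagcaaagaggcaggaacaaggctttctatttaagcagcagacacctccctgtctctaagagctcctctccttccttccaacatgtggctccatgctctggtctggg
Ces1e: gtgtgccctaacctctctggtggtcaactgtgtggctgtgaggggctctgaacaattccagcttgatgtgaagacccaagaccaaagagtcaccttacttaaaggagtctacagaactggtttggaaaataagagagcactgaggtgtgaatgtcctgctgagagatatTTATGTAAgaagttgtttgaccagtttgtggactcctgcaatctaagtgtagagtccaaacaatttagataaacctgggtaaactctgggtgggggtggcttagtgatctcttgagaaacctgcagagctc
Ces1g: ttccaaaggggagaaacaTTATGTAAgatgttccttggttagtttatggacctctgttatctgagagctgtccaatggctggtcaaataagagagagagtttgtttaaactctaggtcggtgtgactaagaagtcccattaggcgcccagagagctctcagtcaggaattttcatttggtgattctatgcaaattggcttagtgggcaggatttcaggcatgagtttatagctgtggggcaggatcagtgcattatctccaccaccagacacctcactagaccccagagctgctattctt
Ces2a: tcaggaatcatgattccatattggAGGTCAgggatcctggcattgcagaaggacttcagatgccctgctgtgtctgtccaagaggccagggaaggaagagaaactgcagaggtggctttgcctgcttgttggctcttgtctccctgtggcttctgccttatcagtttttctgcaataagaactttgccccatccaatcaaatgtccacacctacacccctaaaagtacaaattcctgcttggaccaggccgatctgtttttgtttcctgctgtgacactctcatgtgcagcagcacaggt
Ces3b: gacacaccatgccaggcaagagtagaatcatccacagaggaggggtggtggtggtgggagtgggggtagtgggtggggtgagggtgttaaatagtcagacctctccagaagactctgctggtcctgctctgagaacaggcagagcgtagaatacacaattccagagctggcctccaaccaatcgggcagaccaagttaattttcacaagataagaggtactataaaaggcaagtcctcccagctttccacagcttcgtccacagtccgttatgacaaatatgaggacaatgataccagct

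Counted from the start, TTATGTAA began at position -94 in Ces1c, -81 in Ces1e and -232 in Ces1g, and was found in 3 of 3 Ces1 members with a window and in 0 of 4 Ces2 and Ces3 members (Ces2a, Ces2c, Ces2e and Ces3b). Outside the members it was also present in Ces1b and Ces1a, and absent from Ces1h, Ces2f, Ces2g, Ces2h, Ces4a and Ces5a, so not every Ces1 gene carries it. Of all 32851 windows in the table, 0.938% held it. Its looser form TTANNTAA, which contains it, was in 6.00% of windows. All searches covered both strands. Among the other sequences searched, the E-box of BMAL1, CACGTG, occurs in 7.15% of all windows, and its looser form CANNTG, which contains it, in 72.3%. The nuclear receptor core AGGTCA occurs in 16.3% of windows, and the related TNGGTCA, which may overlap it, in 10.96%. A CCAAT box occurs in 37.4% of windows, the HNF4-type sequence CAAAGTCCA in 0.475%, the C/EBP-type sequence TTGCNNAA in 10.8% and the TATA box TATAAA in 13.6%. The E-box letters CACGTG were in none of the 7 member windows, which says little for so few windows at a share of 7.15%. The looser CANNTG was in Ces1c, Ces1e, Ces1g, Ces2a, Ces2c and Ces2e and not in Ces3b. The Ces1 genes share ancestry, so their matches are not separate observations, and a match describes letters, not binding, which was not measured here.

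All 10 members had a mean value above the minimum for testing. Values are FPKM, which are scaled by gene length, so levels can be set beside each other between genes. Ces1c stood far above the rest and was rank 25 of all 18079 genes by its mean. In WT its level ran from 1299 to 1978 FPKM (median 1764), above that of every other member in all 18 libraries. Ces1d followed at a mean of 610 ± 179 FPKM (SD, n = 18), then Ces3a at 253 ± 67.0, Ces1f at 171 ± 32.7, Ces2a at 127 ± 29.2, Ces1g at 124 ± 23.5, Ces3b at 109 ± 34.5, Ces2e at 95.4 ± 23.4, Ces1e at 44.8 ± 8.09 and Ces2c at 4.64 ± 2.15. Neighbours in the middle of this order were close: Ces2a was above Ces1g in 9 of 18 WT libraries, Ces1g above Ces3b in 12 and Ces3b above Ces2e in 12. In KO the order changed, with Ces3a above Ces1d in 18 of 18 libraries, whereas in WT Ces1d was above Ces3a in 18 of 18 and in Liver-RE in 17 of 18. Replicate spread differed between members: the median coefficient of variation within the groups of 3 was 8.20% for Ces1c, 28.3% for Ces3a and 41.7% for Ces2c.

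**Figure D1:**
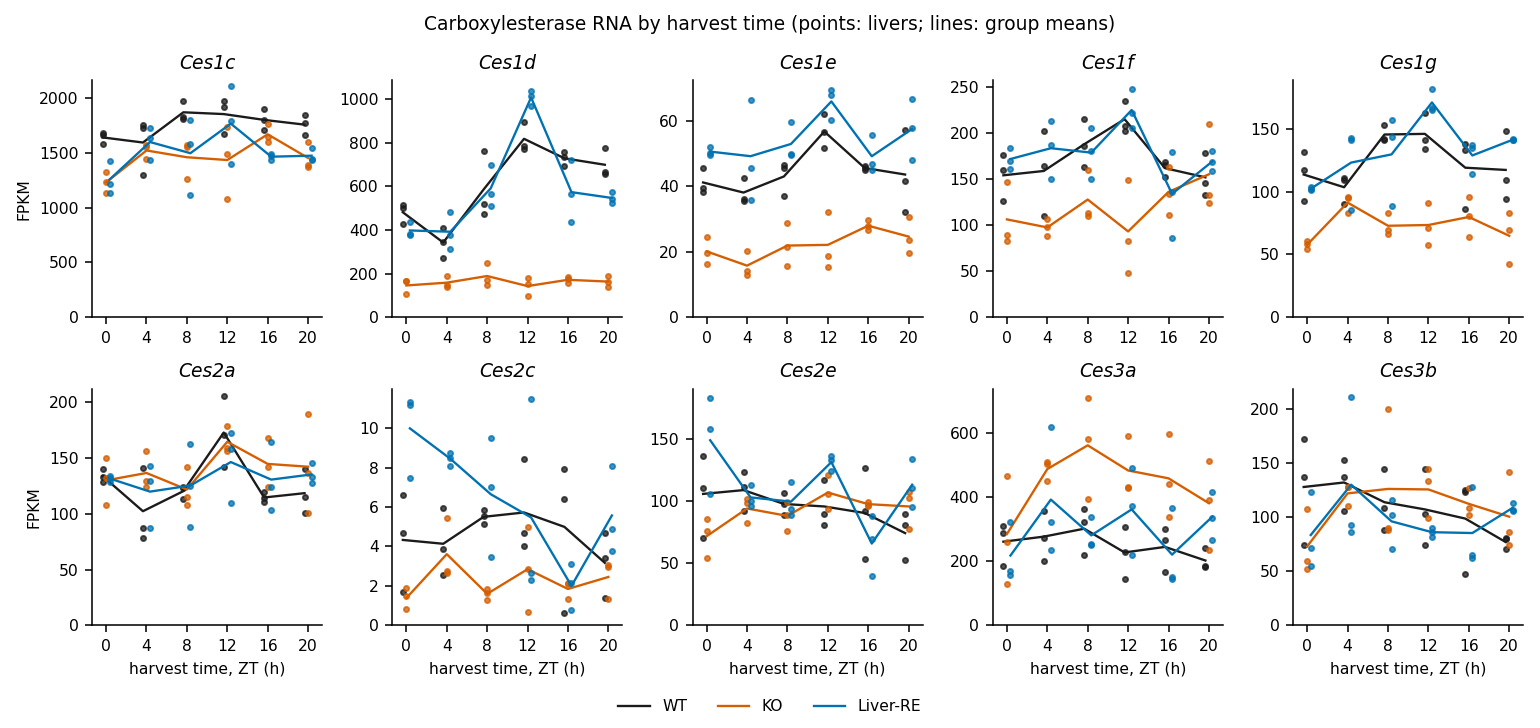
FPKM (linear axes from 0, one scale per gene) of the 10 members against harvest time; each point is 1 liver, lines join the means of 3 livers, and colours mark WT, KO and Liver-RE. Ces1d swings in WT and Liver-RE and stays between 95.8 and 249 FPKM in KO, Ces1e and Ces1g are lower in KO, and Ces3a is higher in KO.

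The tissue markers fitted liver: Alb was at 28839 to 45455 FPKM in WT. The whole-gene value of Arntl did not fall to 0 in KO, so it does not check the knockout label, but its 24 h cycle (8.11-fold from trough to peak in WT) was not called in KO. In WT at ZT8 (replicate 2) and in Liver-RE at ZT0 (replicate 3), 1 library each had Arntl more than 2-fold from both other replicates, and results that change without these 2 libraries are given with them. In bulk RNA, fewer cells of a type and less RNA per cell cannot be told apart. Over all tested genes, 13.5% were lower and 16.5% higher in KO than in WT, and 7.42% were higher in Liver-RE than in KO. Kupffer cell markers were lower in KO than in WT for 9 of 10 genes. In Liver-RE 5 of 10 were lower than in WT (5.88% of all tested genes), and 0 of 10 were called against KO. Their summed level was 297 to 422 FPKM in WT, 179 to 396 in KO and 181 to 437 in Liver-RE. The 8 cholangiocyte markers, of which 4 were tested and 3 were higher in KO than in WT, summed to 15.1 to 42.3 FPKM in WT, 18.1 to 80.6 in KO and 11.4 to 26.2 in Liver-RE. Of 14 hepatocyte markers, 3 were lower and 1 higher in KO, and their sum, mostly Alb, was 45341 to 64819 FPKM in WT, 25893 to 47240 in KO and 34821 to 70808 in Liver-RE. Endothelial markers (1 of 10 higher, 1 lower) and stellate cell markers (1 of 9 lower) showed few calls in KO against WT. Of intestinal epithelium markers 2 of 4 were lower in KO than in WT. That list summed to a median of 211 FPKM for WT, 106 for KO and 172 for Liver-RE. Of lymphocyte markers 1 of 3 was lower in KO than in WT. Of adipocyte markers 1 of 4 was higher and 1 lower in KO than in WT, and 3 of 4 were higher in Liver-RE than in KO. The adipocyte list summed to a median of 633 FPKM for WT, 514 for KO and 834 for Liver-RE, with its defining gene Adipoq at a median of 0 FPKM for each genotype. The part of these shifts in the results below was not tested.

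The first comparison asked how carboxylesterase RNA differs without BMAL1. In KO, 6 members were lower than in WT and 1 was higher (limma on log2(FPKM + 1), means over the 6 harvest times, Benjamini-Hochberg adjusted p below 0.05), while 30% of all 11759 tested genes were called, 13.5% lower and 16.5% higher. All 5 Ces1 members and Ces2c were lower, Ces3a was higher, and Ces2a, Ces2e and Ces3b were not called. The median log2 fold change was -0.76 for the Ces1 members, 0.01 for the Ces2 and Ces3 members and 0.02 for all genes tested. Fold changes are on the log2(FPKM + 1) scale throughout, which understates those of low genes such as Ces2c. All 3 comparisons of genotypes draw on the same libraries, so they are not independent of each other.

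Ces1d, the triacylglycerol hydrolase, had the largest difference among the members. Its values ran from 273 to 896 FPKM in WT (median 662), from 95.8 to 249 in KO (median 163) and from 315 to 1040 in Liver-RE (median 533). Every KO liver was thus below every WT and every Liver-RE liver. The level in KO was 3.66-fold lower than in WT (log2 fold change -1.87 ± 0.099, SE; adjusted p = 2.3e-21, limma), rank 28 from the lowest of 11759 genes. Complete separation of 18 KO below 18 WT libraries occurred for 0.306% of tested genes, and Ces1d was the only member among them.

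Ces1e, the egasyn gene, ran from 32.1 to 62.1 FPKM in WT (median 45.2), from 13.0 to 32.2 in KO (median 20.8) and from 35.8 to 69.7 in Liver-RE (median 51.2). The highest KO liver just overlapped the lowest WT liver. The KO level was 2.02-fold below that of WT (log2 fold change -1.02 ± 0.088, adjusted p = 2.35e-13, limma). Within each harvest time the 3 KO livers were below the 3 WT livers at all 6 times for Ces1d and Ces1e, an order found for 0.697% of tested genes. For Ces1d this follows from its complete separation and is no further result.

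Ces1g, a lipid hydrolase, fell from a WT range of 86.4 to 163 FPKM (median 132) to 42.3 to 95.5 in KO (median 70.4), and ranged from 85.4 to 182 in Liver-RE (median 141). The KO livers overlapped the low end of both other groups. The log2 fold change of KO against WT was -0.76 ± 0.093 (1.69-fold lower, adjusted p = 5.46e-09, limma). Ces1f, which also acts on neutral lipids, ran from 110 to 235 FPKM in WT (median 167), from 47.7 to 209 in KO (median 112) and from 85.5 to 247 in Liver-RE (median 180). These ranges overlapped widely, and KO was 1.48-fold lower than WT (log2 fold change -0.57 ± 0.118, adjusted p = 0.000171, limma).

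Ces1c, the plasma esterase, showed a small difference on a very high level. It ran from 1299 to 1978 FPKM in WT (median 1764), from 1080 to 1768 in KO (median 1520) and from 1116 to 2111 in Liver-RE (median 1458), with wide overlap. Its mean was lower in KO at all 6 harvest times, by 1.21-fold overall (log2 fold change -0.27 ± 0.066, adjusted p = 0.00124, limma). The summed FPKM of the 10 members made up 0.906% ± 0.0731 of the table for WT, 0.761% ± 0.0854 for KO and 0.903% ± 0.107 for Liver-RE (SD, n = 18 each). The 4 Ces1 members other than Ces1c summed to 950 ± 212 FPKM in WT, against 376 ± 70.1 in KO and 949 ± 273 for Liver-RE. The 5 Ces2 and Ces3 members summed to 590 ± 120, 788 ± 176 and 649 ± 171 FPKM in the same order, with the highest mean in KO.

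In the second gene group, Ces3a was the member that was higher without BMAL1. Its values ran from 146 to 364 FPKM in WT (median 254), from 130 to 711 in KO (median 446) and from 145 to 621 in Liver-RE (median 294). The groups overlapped, and 1 KO liver at ZT0 had the lowest value of all (130 FPKM). The mean of Ces3a was higher in KO than in WT at all 6 harvest times. KO exceeded WT by 1.70-fold (log2 fold change 0.77 ± 0.165, adjusted p = 0.000269, limma). Its near copy Ces3b ran from 47.5 to 172 FPKM in WT, from 52.1 to 200 in KO and from 55.1 to 211 in Liver-RE, and was not called (log2 fold change of KO against WT 0.01, 95% interval -0.28 to 0.30, adjusted p = 0.966, limma). Where reads are split between the pair, their difference may be understated or overstated. The ratio of Ces3a to Ces3b within a library, which no scaling of libraries can alter, ran from 1.78 to 3.53 in WT (median 2.27), from 2.20 to 6.46 in KO (median 4.21) and from 2.18 to 5.46 in Liver-RE (median 2.74).

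Ces2c, an acylglycerol hydrolase, was the lowest member and the only Ces2 gene to be lower in KO. It ran from 0.644 to 8.46 FPKM in WT (median 4.68), from 0.698 to 5.42 in KO (median 1.98) and from 0.783 to 11.5 in Liver-RE (median 7.24), all overlapping. KO was 1.67-fold lower than WT (log2 fold change -0.74 ± 0.195, adjusted p = 0.00271, limma). The predicted gene Gm33218 overlaps Ces2c, and its reads may add to this value if strand was not used in counting. Ces2a, which acts on drugs and acylglycerols, ran from 78.4 to 206 FPKM in WT and from 101 to 190 in KO (log2 fold change 0.15, 95% interval -0.04 to 0.34, adjusted p = 0.231, limma). Ces2e, a drug esterase, ran from 52.7 to 136 FPKM in WT and from 54.1 to 121 in KO (log2 fold change -0.02, 95% interval -0.26 to 0.22, adjusted p = 0.909, limma). The interval of Ces2e reaches well to both sides of 0, and that of Ces2a lies mostly above it.

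**Figure D2:**
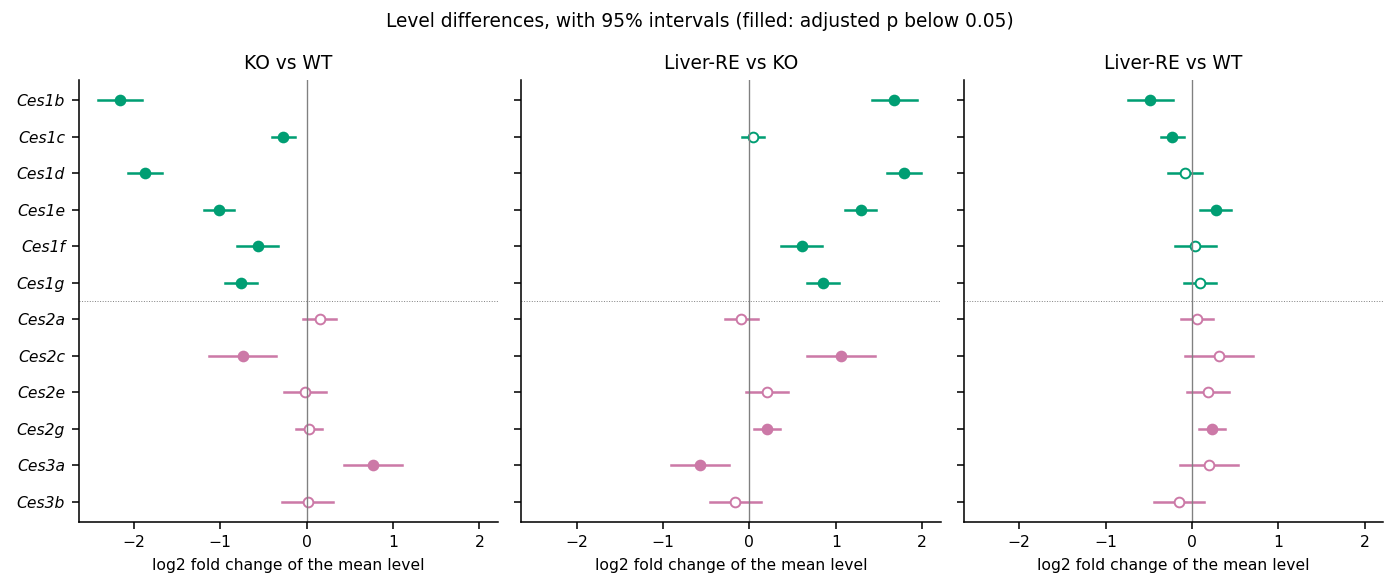
Log2 fold change of the mean level on log2(FPKM + 1) with 95% intervals, for the 10 members and the other tested carboxylesterases Ces1b and Ces2g, in the order of the genes on the chromosome; the dotted line divides the Ces1 genes (green) from the Ces2 and Ces3 genes (pink), and filled circles have an adjusted p below 0.05. All Ces1 genes lie below 0 in KO against WT, and all but Ces1c lie well above 0 in Liver-RE against KO.

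The second comparison asked which of these levels differ once BMAL1 is back in the liver. Against KO, 5 members were higher in Liver-RE and 1 was lower, while 34.1% of all tested genes were called, 7.42% higher and 26.7% lower. The members that rose were Ces1d (3.47-fold, log2 fold change 1.79 ± 0.099, adjusted p = 1.7e-20, limma), Ces1e (2.44-fold, 1.29 ± 0.088, adjusted p = 6.61e-17), Ces1g (1.802-fold, 0.85 ± 0.093, adjusted p = 2.65e-10), Ces1f (1.52-fold, 0.60 ± 0.118, adjusted p = 7.19e-05) and Ces2c (2.08-fold, 1.06 ± 0.195, adjusted p = 3.15e-05). Ces3a fell by 0.57 ± 0.165 on the log2 scale (adjusted p = 0.00602, limma). Each of the 6 had moved the opposite way in KO against WT, but the KO libraries enter both comparisons. The 18 Liver-RE livers were all above the 18 KO livers for Ces1d and Ces1e, a separation found for 0.247% of tested genes. Their separation within each harvest time follows from this and is no further result. No other member was separated at all 6 harvest times (0.468% of tested genes). Ces1c, lower in KO than in WT, was not called between Liver-RE and KO by this test (log2 fold change 0.04, 95% interval -0.09 to 0.17, adjusted p = 0.648, limma). The size of this difference depended on the processing, but the lack of a call did not. Under the other settings its log2 fold change ran from 0.04 to 0.16, and the lowest adjusted p was 0.0536 (limma), still above 0.05.

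Against WT, 2 members were called in Liver-RE, where 7.06% of all tested genes were called, 1.18% higher and 5.88% lower. Ces1c was lower (log2 fold change -0.23 ± 0.066, adjusted p = 0.0274, limma) and Ces1e was higher (0.27 ± 0.088, adjusted p = 0.0469), by 1.17-fold and 1.21-fold. Both calls ended when low genes were kept in the test (adjusted p = 0.05003 for Ces1c and 0.0566 for Ces1e), Ces1c was also not called after quantile normalization (adjusted p = 0.227) or rescaling without the 20 highest genes (adjusted p = 0.0681), and Ces1e was not called in 26 of the 54 fits that left out 1 library (adjusted p = 0.05001 to 0.0803) nor without the 2 libraries named above (adjusted p = 0.0599). Leaving out Liver-RE ZT0 replicate 1, ZT8 replicate 1 or ZT12 replicate 1 also ended the Ces1c call (adjusted p = 0.0505, 0.0560 and 0.0511). For Ces1d the log2 difference from WT was -0.08 with a 95% interval of -0.28 to 0.12, and for Ces1g it was 0.09 with an interval of -0.10 to 0.28. The interval for Ces3a, 0.20 with bounds of -0.14 and 0.53, was wider.

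Ratios between members, chosen after their values were seen, do not depend on scaling between libraries. The ratio of Ces1d to Ces1c ran from 0.199 to 0.537 in WT (median 0.367), from 0.0888 to 0.161 in KO (median 0.103) and from 0.219 to 0.727 in Liver-RE (median 0.360), and KO overlapped neither other group. The ratio of Ces1d to Ces3a ran from 1.15 to 6.14 in WT, from 0.206 to 0.816 in KO and from 0.507 to 4.61 in Liver-RE, so that all WT livers held more Ces1d and all KO livers more Ces3a. Alb, which encodes the plasma protein albumin, was itself 2.24-fold lower in KO (against WT, log2 fold change -1.17 ± 0.094, adjusted p = 2.2e-14, limma). Per 1000 FPKM of Alb, the median of Ces1d was 17.1 FPKM for WT, 9.44 for KO and 16.0 for Liver-RE, that of Ces1e 1.22, 1.28 and 1.63, that of Ces1g 3.19, 4.13 and 3.84, and that of Ces1f 4.72, 6.35 and 5.76. That of Ces1c was 48.6, 82.5 and 44.6. On that scale Ces1d was the only one of the 5 Ces1 members with a lower median in KO than in WT; how far the lower Ces1 levels and the lower Alb level share a source was not tested.

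**Figure D3:**
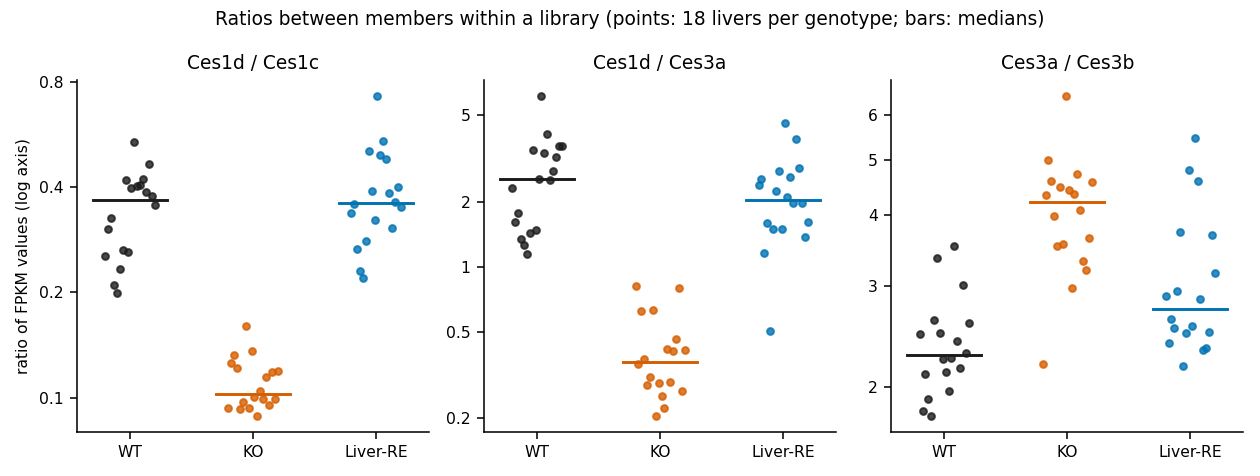
Ratio of the FPKM values of 2 members within each library on log axes, for Ces1d to Ces1c, Ces1d to Ces3a and Ces3a to Ces3b; points are the 18 livers of a genotype and bars their medians. The KO points lie below both other genotypes for Ces1d to Ces1c. For Ces3a to Ces3b they have the highest median, but their range overlaps those of both other genotypes.

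The study's harvest times also allow a 24 h rhythm to be tested in each genotype, by a cosine and sine fitted to the 18 livers. In WT 1 member was rhythmic, Ces1d, against 23.5% of all tested genes. In Liver-RE 2 members were rhythmic, Ces1d and Ces2c, against 3.82% of all genes. In KO limma called none of the 10 (0% of all genes). There 2 members, Ces1e and Ces3a, had an unadjusted p below 0.05, as had 1105 of all 11759 tested genes. In WT 9 of the 10 members, and in Liver-RE 8, gave no call of a daily rhythm.

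Ces1d was lowest in the early light phase and highest around lights off. In WT its 3 livers were at 273, 344 and 410 FPKM at ZT4 and at 774, 786 and 896 at ZT12. These times have its lowest and highest WT mean, so their lack of overlap is no separate result. The fitted swing was 2.18-fold from trough to peak with the peak at ZT15.0 ± 0.67 h (SE), adjusted p = 0.00017 (limma). In Liver-RE the livers were at 315, 377 and 484 FPKM at ZT4 and at 969, 1017 and 1040 at ZT12. Those of ZT12 were all above the 3 WT livers of that time. At ZT20 the order was the opposite, with 524, 542 and 576 FPKM in Liver-RE below 656, 668 and 775 in WT. How many of all genes held such an order at 1 time was not counted. The fitted swing in Liver-RE was 2.20-fold with the peak at ZT12.9 ± 0.66 h, adjusted p = 0.000893. In KO the livers were at 140, 146 and 189 FPKM at ZT4 and at 95.8, 150 and 181 at ZT12, and the fitted swing was 1.06-fold (adjusted p = 0.984, limma).

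A test of the difference in rhythm itself called Ces1d between KO and WT (difference of 1.10 ± 0.280 in log2 peak to trough as vectors, adjusted p = 0.0271, limma; 7.78% of all genes were called). The call ended without WT ZT4 replicate 1 (adjusted p = 0.0625) or replicate 2 (adjusted p = 0.0508), the lower livers of that time. Between Liver-RE and KO no member was called (Ces1d adjusted p = 0.122, limma), against 0.238% of all genes. Ces1d, Ces2c and Ces2e had an unadjusted p below 0.05, as had 1460 of all 11759 tested genes. Between Liver-RE and WT no member was called either (3.51% of all genes called), and the Ces1d rhythms were not shown to differ (adjusted p = 0.366, limma). Of the members Ces2c alone had an unadjusted p below 0.05 (adjusted p = 0.111, limma), as had 2094 of all 11759 tested genes.

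Ces2c in Liver-RE peaked near lights on. Its livers were at 7.49, 11.1 and 11.3 FPKM at ZT0 and at 0.783, 2.13 and 3.10 at ZT16. These times have its highest and lowest mean, so their lack of overlap is no separate result. At ZT12 its livers were as far apart as 2.31 and 11.5. The fitted swing was 3.10-fold with the peak at ZT2.8 ± 0.91 h (adjusted p = 0.0255, limma). This call ended without Liver-RE ZT0 replicate 1, ZT12 replicate 3, ZT16 replicate 2 or ZT16 replicate 3 (adjusted p = 0.0521, 0.0512, 0.0703 and 0.104), in a fit of Liver-RE alone (adjusted p = 0.0541) and in an F test between the 6 times (adjusted p = 0.0771). The difference from WT was called only without Liver-RE ZT12 replicate 1 (adjusted p = 0.0271) or WT ZT16 replicate 1 (adjusted p = 0.0249).

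**Figure D4:**
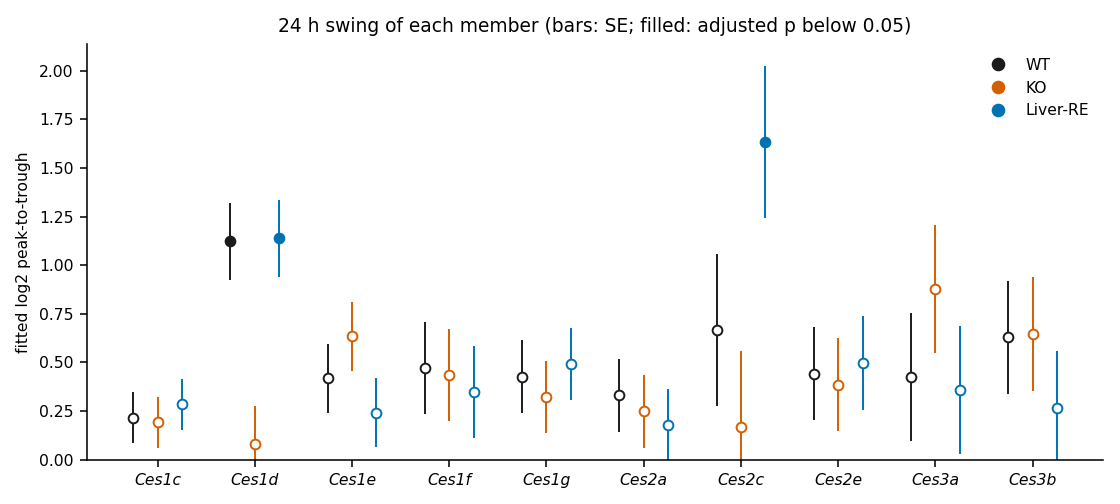
Fitted log2 peak-to-trough of the 24 h cosine for each member and genotype; bars are SE, cut at 0, and filled circles have an adjusted p below 0.05 for a rhythm. Ces1d is filled at 1.12 for WT and 1.14 in Liver-RE and lies at 0.08 in KO; Ces2c in Liver-RE, at 1.63, has a wide error.

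The factors known to bind D-boxes are given here because of the sequences shown for Ces1c, Ces1e and Ces1g; they were picked for that reason. Dbp was lower in KO (against WT, log2 fold change -1.48 ± 0.260, adjusted p = 1.2e-05, limma), as were Tef (-0.33 ± 0.110, adjusted p = 0.0205) and Hlf (-0.22 ± 0.084, adjusted p = 0.0400), and Nfil3 was higher (0.34 ± 0.129, adjusted p = 0.0394). Dbp cycled 24.8-fold in WT with a peak at ZT10.9 and 13.4-fold in Liver-RE with a peak at ZT5.9. Tef and Nfil3 were also called rhythmic in both, and Hlf in WT only (adjusted p = 0.640 in Liver-RE, limma). In the main fit Ces1c, Ces1e and Ces1g were called rhythmic in neither, and the rhythmic Ces1d had no window. The part of these factors in the levels of the carboxylesterases was not tested.

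Across the 18 group means, Ces1d varied most closely with Ces1g and Ces1e among the members (Pearson r = 0.92 for both), and it ran opposite to Ces3a (r = -0.64). These values describe means that share libraries and the genotype difference. In the deviations of the 54 libraries from their group means, which leave the groups out, the closest pairs were Ces3a with Ces3b (r = 0.74) and Ces2c with Ces2e (r = 0.69), members of 1 subfamily each; shared reads touch the first pair.

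Of the 7 other carboxylesterase rows in the table, 2 passed the minimum for testing. Ces1b, whose coding sequence is 90.9% identical to that of Ces1c, had a median of 32.1 FPKM for WT, 6.15 for KO and 21.3 for Liver-RE, and every KO liver was below every WT and Liver-RE liver. Its KO level was 4.47-fold below that of WT (log2 fold change -2.16 ± 0.128, adjusted p = 2.32e-19, limma), 3.20-fold higher in Liver-RE than in KO, and lower in Liver-RE than in WT (-0.48 ± 0.128, adjusted p = 0.0153). Ces2g was at 13.4 ± 2.90 FPKM in WT and 13.5 ± 1.89 in KO and was not called (log2 fold change 0.02, adjusted p = 0.837). Its call as higher in Liver-RE than in WT (0.23 ± 0.075, adjusted p = 0.0486) ended without the 2 libraries with Arntl out of phase (adjusted p = 0.0753). Ces1a, Ces2b, Ces2d-ps, Ces2h and Ces4a had means of 0.0479 to 0.334 FPKM and were not tested.

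Related genes of lipid handling and ester hydrolysis gave counts in both directions in KO against WT, where 16.5% of all tested genes were higher and 13.5% lower. Of 14 neutral and acid lipases, 3 were higher and 3 lower. The monoacylglycerol lipase Abhd6 had a log2 fold change of -1.01 ± 0.126, Pnpla3 -1.50 ± 0.268 and the hepatic lipase Lipc 0.68 ± 0.090 (adjusted p = 9.39e-09, 1.63e-05 and 4.13e-08, limma). Of 15 genes of VLDL assembly and lipid droplets, 1 was higher and 2 lower, among the latter Dgat2, which makes triacylglycerol (-0.50 ± 0.073, adjusted p = 3.76e-07). Of 15 other drug and ester hydrolases, 6 were higher and 2 lower; the epoxide hydrolase Ephx1 was higher (0.51 ± 0.102, adjusted p = 9.94e-05) and the formamidase Afmid lower (-0.56 ± 0.127, adjusted p = 0.000532). Of 19 genes listed as xenobiotic and nuclear receptor regulators, 2 were higher and 9 lower. Among the lower were Ppara (-0.46 ± 0.103, adjusted p = 0.000484, limma) and Por (-0.99 ± 0.127, adjusted p = 1.53e-08, limma). Por is the P450 reductase, an enzyme kept in this list rather than a regulator.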

How the data were processed

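RNA was sequenced from 54 livers as stranded, ribosomal RNA-depleted libraries read over 100 cycles from one end, per the labels' protocols. CASAVA 1.8.2 and mm10 are named in the submitters' processing notes, with no role stated. The sources used here give no aligner, counting method, use of strand or annotation. The authors deposited 1 value per gene and library with no unit named, taken from the values as FPKM: among low values the most frequent one held 7.11% ± 1.24 (SD, n = 54) once multiplied by transcript length, against 2.31% ± 0.151 as they stand. These steps give a depth of about 31.1 ± 4.05 M reads (24.5 to 42.7), which is an estimate, so no counting interval is given.

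Genes with a mean FPKM of at least 0.5 (11759; 6320 were lower) were analysed as log2(FPKM + 1) in limma 3.58.1 (R 4.3.3), in 1 model over all libraries holding for each genotype its mean plus cosine and sine terms of 24 h and empirical Bayes with an intensity trend. Levels are contrasts of the genotype means, rhythms and rhythm differences F tests; p-values were adjusted by Benjamini and Hochberg over all genes tested, with a threshold of 0.05. A rhythm difference is sized as the peak-to-trough of the difference between 2 cosines. The functions were tested on simulated data. Whether replicates came from separate extractions is not stated, so p-values measure the spread between these livers.

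The members, gene lists, tests and sequences searched were chosen with earlier results of these data known. All members are named; of each other list, genes are taken from the 4 with the smallest p in KO against WT, and all tested carboxylesterases are given. For each member the 3 genes with the closest pattern were also listed. Alternatives were a pseudocount of 0.1, a replicate block, quantile normalization, no filter, rescaling without the 20 highest genes, group means, robust empirical Bayes, fits of only the genotypes concerned, an F test between the 6 times and each library left out; leaving out 2 libraries with Arntl out of phase was added after the data were seen. Gene positions and start regions are from RefSeq (GRCm38.p6), strands and transcripts from GENCODE (GRCm38). Python 3.11.15 with pandas 2.3.3, numpy 2.4.6, matplotlib 3.10.9 and Biopython 1.88 did the rest.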

Additional observations from a re-analysis of the deposited data

Results flagged for a closer look

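The 24 h rhythm of Ces1d differed between KO and WT in a direct test. The difference, as the peak-to-trough of the difference between the 2 fitted cosines, was 1.10 on the log2 scale (adjusted p = 0.0271, limma), and the call ended without WT ZT4 replicate 1 (adjusted p = 0.0625) or replicate 2 (adjusted p = 0.0508). The fitted log2 swing was 1.12 ± 0.198 (SE) in WT and 0.08 ± 0.198 in KO, and the mean level was also 3.66-fold lower in KO.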

How the results depend on the processing

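Calls of the members in KO against WT (6 lower, 1 higher) were the same under every setting run, each library left out included, and so was the count of 0 rhythmic members in KO. With the replicate number as a block the counts were also 6 and 1, and the block changed no member's call. Deviations of livers from their group means had a mean correlation of 0.0397 over 459 pairs with the same number (-0.402 to 0.510). For the 918 pairs with different numbers it was -0.0201 (-0.496 to 0.461). No direction of a called value reversed. In Liver-RE against WT, members higher and lower became 0 and 0 without the filter, members lower 0 after quantile normalization and 0 after rescaling without the 20 highest genes, and members higher 0 without the 2 libraries with Arntl out of phase; leaving out 1 library gave 0 to 1 for each. Rhythmic members in Liver-RE became 1 in a fit of that genotype alone and 1 to 2 with a library left out. The rhythm difference between KO and WT was called for 0 to 1 members, and that between Liver-RE and WT for 0 to 1, with a library left out. Ces2e was higher in Liver-RE than in KO after quantile normalization (adjusted p = 0.0283), after rescaling (0.0402) and without Liver-RE ZT16 replicate 3 (0.0347), Ces2e was rhythmic in Liver-RE by the F test between 6 times (0.0277), and Ces1g after quantile normalization (0.0462). Ces2g, called higher in Liver-RE than in KO (0.0285) and in WT (0.0486), lost the first without KO ZT20 replicate 3 (0.0568) and the second without the filter (0.0583), with only the genotypes concerned (0.0677), without the 2 libraries (0.0753) and in 35 of 54 fits with a library left out.

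Counts over all genes moved as follows. Genes lower in Liver-RE than in WT numbered 266 after quantile normalization and 292 after rescaling, and 430 to 964 with a library left out; those higher numbered 247 after quantile normalization. Against KO, 1457 were higher and 1643 lower in Liver-RE after quantile normalization, and 1635 lower after rescaling. Rhythmic genes in KO numbered 2 without the filter, 2 after quantile normalization, 1 with group means, 6 by the F test between 6 times, 1 without the 2 libraries and 0 to 3 with a library left out. Rhythmic genes in Liver-RE numbered 729 after quantile normalization, 191 in a fit of that genotype alone and 249 to 645 with a library left out. The rhythm difference between Liver-RE and KO was called for 7 genes without the filter, 59 after quantile normalization, 52 after rescaling, 44 with group means, 49 with only those genotypes, 76 without the 2 libraries and 7 to 65 with a library left out; between KO and WT the range was 568 to 1133 and between Liver-RE and WT 260 to 580. The causes were not tested.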

Other observations

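For each member the 3 genes outside the family with the most similar pattern over the 18 group means were listed, as a description; these means share libraries and the genotype differences. Closest to Ces1d were the predicted gene Gm19522 (Pearson r = 0.97), Hsd11b1, which reactivates glucocorticoid (0.95), and Alb (0.95), and Alb and Hsd11b1 were also among the 3 closest to Ces1g (0.92 for both), after Nrp2 (0.93). Closest to Ces1e were the cytochrome P450 gene Cyp2b13 (0.94) and the transporter gene Slc22a27 (0.94), the latter also the closest to Ces1f (0.88). Closest to Ces1c was Nr3c1, the glucocorticoid receptor (0.90). For Ces3a they were the sulfotransferase gene Sult2a8 (0.91) and the cytochrome P450 gene Cyp2d10 (0.89), and for Ces2c Slc16a11 (0.94) and the major urinary protein gene Mup5 (0.92). The closest patterns had lower r for Ces2a (Suclg1, 0.84), Ces3b (Enpp5, 0.84) and Ces2e (Hsd17b12, 0.87).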
